A study of Homo sapiens with 12 samples.

Results

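The miR-221 and miR-222 cluster is a pair of neighbouring human microRNA (miRNA) hairpins on chromosome X, each of which yields a 5p and a 3p mature miRNA. Its 4 mature names, hsa-miR-221-3p, hsa-miR-221-5p, hsa-miR-222-3p and hsa-miR-222-5p, were taken by name from the 2656 names counted in the series, and all 4 were listed in every library. Small RNA had been sequenced from AC16 cells, an established human line derived from cardiomyocytes, and from exosomes, the small vesicles that cells release, isolated from the same line. The 12 libraries formed 4 groups of 3: exosomes Ang, exosomes Con, cells Ang and cells Con. Ang is not spelled out in the sample titles, but its files carry AngII in their column headers. Neither dose nor time is stated in the labels, no genetic change is named, and all groups share the AC16 line and a library kit whose unique molecular identifiers (UMIs) count molecules. Exosome RNA and cell RNA were extracted with different kits, so compartment and kit cannot be told apart. The stated aim of the study was to identify exosomal miRNAs that change when cardiomyocytes are hypertrophic.

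The hairpins are cut from one long noncoding transcript, so both miRNAs can come from a single primary RNA. In each, the 3p strand is the one usually loaded into Argonaute, where bases 2 to 8, the seed, pair with target messenger RNAs. miR-221-3p and miR-222-3p are known to repress the cyclin-dependent kinase inhibitors CDKN1B and CDKN1C and the receptor KIT, and they are best known from vascular smooth muscle and endothelium. In rat vascular smooth muscle cells, a long noncoding RNA induced by angiotensin II was described as the host transcript of both miRNAs.

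The mature sequences are shown first because the shared seed is what joins the pair, with the seed in capitals; RefSeq (GRCh38.p14) held an entry for 3 of the 4 members.
hsa-miR-221-3p: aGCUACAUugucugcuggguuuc
hsa-miR-222-3p: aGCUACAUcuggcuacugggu
hsa-miR-222-5p: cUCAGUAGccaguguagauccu
The 3p strands have the same first 8 bases. Set side by side from the 5′ end, they were identical at 11 of 21 positions, and 6 single-base edits separated them. Among the 2367 names with a RefSeq sequence (89.1% of all names), no other name carried their seed, and none shared that of miR-222-5p. The closest other mature sequences lay 6 or more edits away, so reads of these 3 members are unlike those of any other name of known sequence, although the labels do not say how many mismatches the counting allowed.

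On GRCh38, miR-221-3p lies at chrX:45746180-45746202, miR-222-3p at chrX:45747036-45747056 and miR-222-5p at chrX:45747073-45747094, all on the minus strand. The hairpins follow, with the listed mature strands in capitals, to show that the 3p strand forms the second arm of each.
MIR221, chrX:45746157-45746266, minus strand: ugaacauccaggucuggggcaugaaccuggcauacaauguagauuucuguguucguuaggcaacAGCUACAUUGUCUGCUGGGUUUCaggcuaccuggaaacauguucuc
MIR222, chrX:45747015-45747124, minus strand: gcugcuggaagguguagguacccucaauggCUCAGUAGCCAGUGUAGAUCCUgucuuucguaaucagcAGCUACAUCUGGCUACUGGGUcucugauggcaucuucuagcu
They are 748 bases apart. Both lie in the intron of the transcript that spans them of MIR222HG, a long noncoding RNA gene at chrX:45745211-45770274 on the minus strand in GENCODE release 29. Since the study looked for consensus sequences, 2 short motifs described for exosomal miRNAs were searched on the strand of the mature RNA. GGAG and CCCU, which cannot overlap each other, occurred in 15.7% and 11.9% of the mature sequences at hand and in 0 of the 3 members with a sequence.

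Library totals ran from 697049 to 1029883 UMIs in exosomes and from 413513 to 528844 UMIs in cells. A floor of 3 counts came to 2.91 to 7.25 CPM (UMI counts scaled by library total) and covers counting error only. Replicates were compared by chi-square divided by its degrees of freedom, in which a lower value means closer agreement. Exosomes Con replicate 1 stood apart from replicates 2 and 3 of its group (6.57 and 10.6, against 1.91 between those), as did cells Ang replicate 2 (3.997 and 4.37, against 1.99). The closest pair of replicates had 1.34, above the value of 1 that sampling noise alone gives. Whether replicates were separate cultures is not stated, and a p-value here speaks only to the spread among these libraries, which may be technical. The AC16 label was set against 7 muscle miRNAs. Their summed level was 285 to 326 CPM in cells Ang and 344 to 376 CPM in cells Con, most of it miR-208a-3p, and miR-1-3p and miR-133a-3p averaged 11.9 and 16.2 CPM in cells Con. The defining muscle miRNAs were thus present at low levels. The data hold bulk RNA, in which fewer vesicles or cells of a kind and less of a miRNA in each cannot be told apart.

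miR-221-3p, the main strand of its hairpin and a repressor of CDKN1B, was abundant in cells and far less so in exosomes. Its level was 574, 723 and 451 CPM in exosomes Ang and 355, 572 and 729 CPM in exosomes Con. In cells it was 7233, 6399 and 7521 CPM in Ang and 7480, 6451 and 6745 CPM in Con. Every exosome library was below every cell library, while Ang and Con overlapped within each compartment. By abundance it ranked between 164 and 220 in exosomes Ang and between 173 and 270 in exosomes Con, against 20 to 25 in cells Ang and 19 to 24 in cells Con. miR-222-3p, which has the same seed, was measured at 44.5, 61.6 and 43.0 CPM in exosomes Ang and at 38.8, 50.6 and 60.7 CPM in exosomes Con. Cells had 436, 336 and 462 CPM in Ang and 414, 380 and 399 CPM in Con. Its libraries fell in the same order of groups, with exosomes below cells and Ang and Con overlapping.

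The 5p strands, which are usually degraded after strand loading, were close to the detection limit in exosomes. miR-221-5p had 0, 3 and 5 UMIs in exosomes Ang and 1, 2 and 5 UMIs in exosomes Con. The count of 0 allows up to 4.30 CPM in that library. In cells it had 27, 24 and 39 UMIs in Ang and 31, 27 and 23 UMIs in Con, or 63.0 ± 11.4 CPM and 55.1 ± 3.23 CPM (SD, n = 3 each). For miR-222-5p there were 3, 3 and 2 UMIs in exosomes Ang and 5, 3 and 3 UMIs in exosomes Con. Cells gave 9, 10 and 16 UMIs in Ang and 14, 16 and 9 UMIs in Con, or 24.6 ± 6.43 CPM and 26.2 ± 4.90 CPM. Each 5p strand was thus above the floor in every cell library and at or near it in every exosome library.

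**Figure D1:**
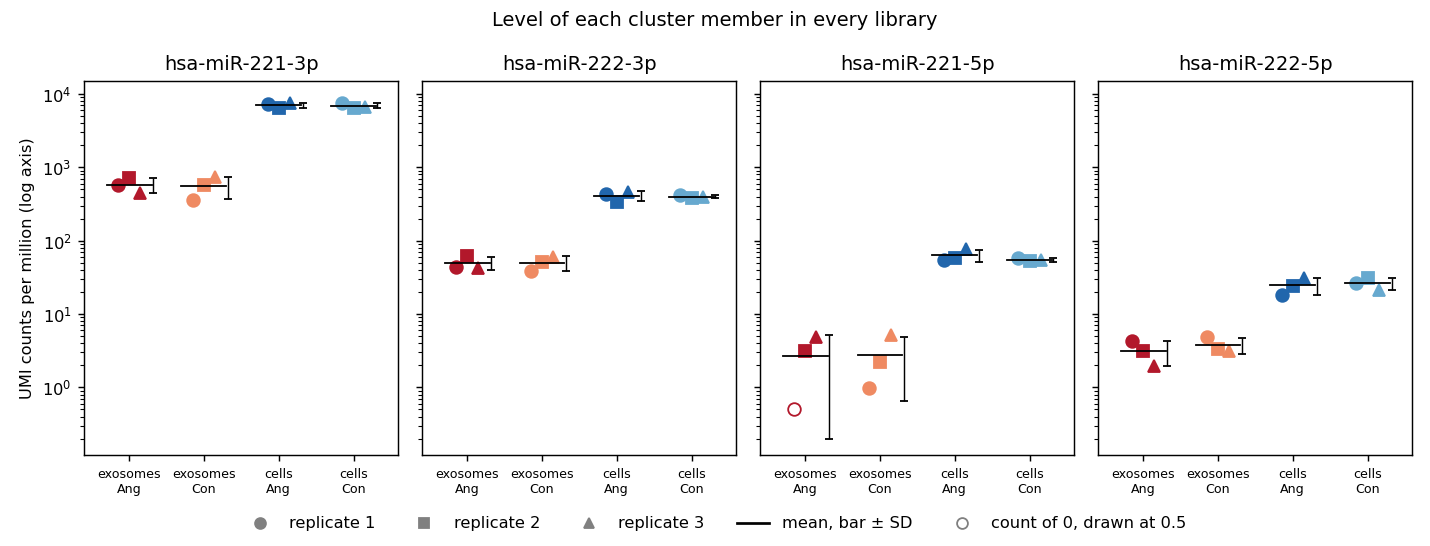
Levels in CPM (log axis) of the 4 members in the 12 libraries, with symbols for replicates, a line for the mean and a bar for ± SD (n = 3); the open symbol is a count of 0 drawn at 0.5. Exosome libraries lie below cell libraries for each member, miR-221-3p is highest in every group, and Ang and Con overlap within each compartment.

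In every group miR-221-3p came first and miR-222-3p second, and their ranges did not overlap. miR-221-3p averaged 582 ± 136 CPM in exosomes Ang, 552 ± 188 CPM in exosomes Con, 7051 ± 583 CPM in cells Ang and 6892 ± 530 CPM in cells Con (SD, n = 3 each). miR-222-3p averaged 49.7 ± 10.3, 50.1 ± 10.96, 412 ± 66.5 and 397 ± 17.2 CPM in the same groups. In cells miR-221-5p stood above miR-222-5p without overlap, whereas in exosomes the 5p strands, at means between 2.67 and 3.77 CPM, did not differ beyond their spread. A UMI marks one molecule of about the same length for each member, so these levels need no length correction, but strands can be ligated with different efficiency, which was not measured here. Together the 4 members made up 0.0638 ± 0.0146% of UMIs in exosomes Ang, 0.0609 ± 0.0200% in exosomes Con, 0.755 ± 0.0658% in cells Ang and 0.737 ± 0.0549% in cells Con. miR-221-3p alone supplied between 88.8% and 92.2% of the cluster's counts in exosomes and between 93.0% and 93.9% in cells.

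The first comparison was Ang against Con in exosomes, the contrast the study was built on. Neither 3p strand passed the test. miR-221-3p had a log2 fold change of 0.25 (SE 0.222, 1.19-fold, 95% interval 0.844 to 1.68; edgeR quasi-likelihood test with Benjamini-Hochberg adjustment, adjusted p = 0.432). miR-222-3p had 0.16 (SE 0.203, 95% interval -0.29 to 0.62 on the log2 scale; edgeR adjusted p = 0.595). The interval of miR-221-3p still allows a rise of over 1.5-fold. Of the 1199 names tested, 34% were called, 16.9% higher and 17.1% lower in Ang, against 0 of the 2 members tested (0 at an unadjusted p under 0.05 and 0 with DESeq2 or limma-voom). Both 5p strands fell under the count filter and were not tested. Scaled by library totals alone, miR-221-3p came to 0.08 and miR-222-3p to -0.0032, the median of all names moved by -0.16, and 151 of 470 calls were higher in Ang, against 203 of 408 under TMM and 177 of 293 with DESeq2.

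Exosomes Con replicate 1, the library that stood apart, held the lowest miR-221-3p and miR-222-3p of its group. Without it the log2 changes were 0.03 for miR-221-3p and 0.04 for miR-222-3p, and without exosomes Con replicate 3 they were 0.48 and 0.30, with edgeR adjusted p = 0.119 and 0.310. Exosomes Con replicate 1 also had a lower sum of the 8 blood cell markers. Their summed level was 346 to 644 CPM in exosomes Ang, and 552 CPM in exosomes Con replicate 1 against 1194 and 1279 CPM in replicates 2 and 3. The largest part of these sums was miR-223-3p, at 385 CPM in exosomes Con replicate 1 against 609 and 632 CPM. miR-451a of red cells stood at 9.71 CPM in that replicate, against 92.3 and 128 CPM. Not every marker was lower in that replicate. miR-150-5p stood at 19.4 CPM against 19.1 and 25.7 CPM, and each strand of miR-144 at 0.97 CPM against 0 in replicates 2 and 3. Up to 4 of the 8 were at 0 in an exosome Ang library, miR-451a among them in replicate 1, and up to 2 in an exosome Con library. Endothelial markers, the 2 strands of miR-126, summed to 84.6 to 233 CPM in exosomes Ang and to 130, 434 and 473 CPM in exosomes Con. The 3 liver markers summed to 47.3 to 70.0 CPM in exosomes Ang and to 35.9, 161 and 185 CPM in exosomes Con. They did not move as a set. miR-122-5p averaged 11.3 CPM in exosomes Ang against 96.0 CPM in exosomes Con. miR-885-5p went the other way (33.2 against 21.2 CPM), and miR-192-5p hardly differed (10.9 against 10.3 CPM). The part of these blood, endothelial and liver markers in the values of the cluster was not tested.

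In cells, Ang against Con gave log2 changes near 0 for the main strands. miR-221-3p had 0.02 (SE 0.0735, 95% interval -0.14 to 0.17; edgeR adjusted p = 0.947) and miR-222-3p 0.04 (SE 0.118, interval -0.21 to 0.29; edgeR adjusted p = 0.918). These intervals leave room for a change of at most 1.13-fold upward for miR-221-3p and 1.22-fold for miR-222-3p. The passenger strands were measured less closely, miR-221-5p at 0.19 (interval -0.25 to 0.62; edgeR adjusted p = 0.718) and miR-222-5p at -0.12 (interval -0.79 to 0.56; edgeR adjusted p = 0.915). None of the 4 members was called (0 at an unadjusted p under 0.05 and 0 with DESeq2 or limma-voom, DESeq2 giving no adjusted p for the 5p strands), beside 6.56% of the 1630 names tested, 2.76% higher and 3.8% lower. The number of names called was 107, and it was 38 without cells Con replicate 2, 38 without cells Con replicate 3 and 70 without cells Ang replicate 1. Cells Ang replicate 2, which stood apart, had the lowest miR-221-3p and miR-222-3p of the cell libraries. It also held 6960 CPM of blood cell markers against 2073 and 2190 CPM in the other Ang libraries and 2158 to 2393 CPM in cells Con, with 0 of 8 markers at 0. The largest part of these sums was miR-223-3p, which averaged 1999 CPM in cells Con. It had 3282 CPM in cells Ang replicate 2 against 1827 and 1969 CPM in the other Ang libraries. miR-451a stood at 218 CPM in Ang replicate 2, against 10.2 and 3.90 CPM in replicates 1 and 3. Endothelial markers stood at 4665 CPM there, against 517 and 524 CPM in the other Ang libraries and 575 to 674 CPM in cells Con. Liver markers summed to 288 CPM there, against 95.8 and 113 CPM in the other Ang libraries and 80.2 to 114 CPM in cells Con. Most of that sum was miR-122-5p, at 181 CPM against 8.15 and 7.80 CPM in the other Ang libraries. miR-192-5p did not follow, at 75.0 CPM against 71.4 and 79.9 CPM. Without that library miR-221-3p had a log2 change of 0.08 and miR-222-3p of 0.15 (edgeR adjusted p = 0.687 and 0.550).

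Exosomes against cells gave the large differences of this cluster. In Con, all 4 members were called lower in exosomes on the TMM scale, which sets the bulk of names level between libraries. The 5p strands, at 1 to 5 UMIs in each exosome Con library, passed the count filter only through the cell libraries. That filter favours a lower call, so the calls of the 5p strands are not independent support. miR-221-3p was 4.38-fold lower (log2 -2.13, SE 0.199; edgeR adjusted p = 2.30e-06) and miR-222-3p 2.78-fold lower (log2 -1.48, SE 0.149; edgeR adjusted p = 4.31e-06). miR-221-5p was 6.74-fold lower (log2 -2.75, SE 0.389; edgeR adjusted p = 6.25e-05) and miR-222-5p 2.40-fold lower (log2 -1.26, SE 0.343; edgeR adjusted p = 0.00658). Of the 1710 names tested 83.3% were called, 39.2% higher and 44.2% lower, so a call by itself is common here. The median log2 change of all names was -0.27, and 23.6% of names had a lower value than miR-221-3p, 33.0% than miR-222-3p, 15.7% than miR-221-5p and 35.6% than miR-222-5p. The members therefore lay in the lower part of the distribution without being at its end.

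In Ang the order of the members was the same. miR-221-3p was 3.27-fold lower in exosomes (log2 -1.71, SE 0.128; edgeR adjusted p = 1.44e-09), miR-222-3p 2.23-fold lower (log2 -1.16, SE 0.179; edgeR adjusted p = 1.46e-05) and miR-221-5p 5.60-fold lower (log2 -2.49, SE 0.442; edgeR adjusted p = 6.50e-05). miR-222-5p was 2.20-fold lower (log2 -1.14, SE 0.462; edgeR adjusted p = 0.0326). That last call was lost without cells Ang replicate 2 or 3 (edgeR adjusted p = 0.0543 and 0.162) and without exosomes Ang replicate 1, 2 or 3 (0.0613, 0.0894 and 0.207). All 4 members were called lower, beside 83.3% of the 1627 names tested that were called, 38.2% higher and 45.1% lower, with a median log2 change of -0.31. As in Con, the 5p strands passed the count filter only through the cell libraries, which favours a lower call for them. The scaling sets the size of these differences. With library totals alone the log2 changes in Con were -3.65 for miR-221-3p, -2.998 for miR-222-3p, -4.24 for miR-221-5p and -2.76 for miR-222-5p, and in Ang they were -3.61, -3.06, -4.34 and -2.98. The median of all names moved by -1.52 in Con and by -1.89 in Ang under that scaling, where 346 names were higher and 1156 lower in Con, and 294 higher and 1176 lower in Ang. Each member was lower in exosomes under every scaling tried.

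**Figure D2:**
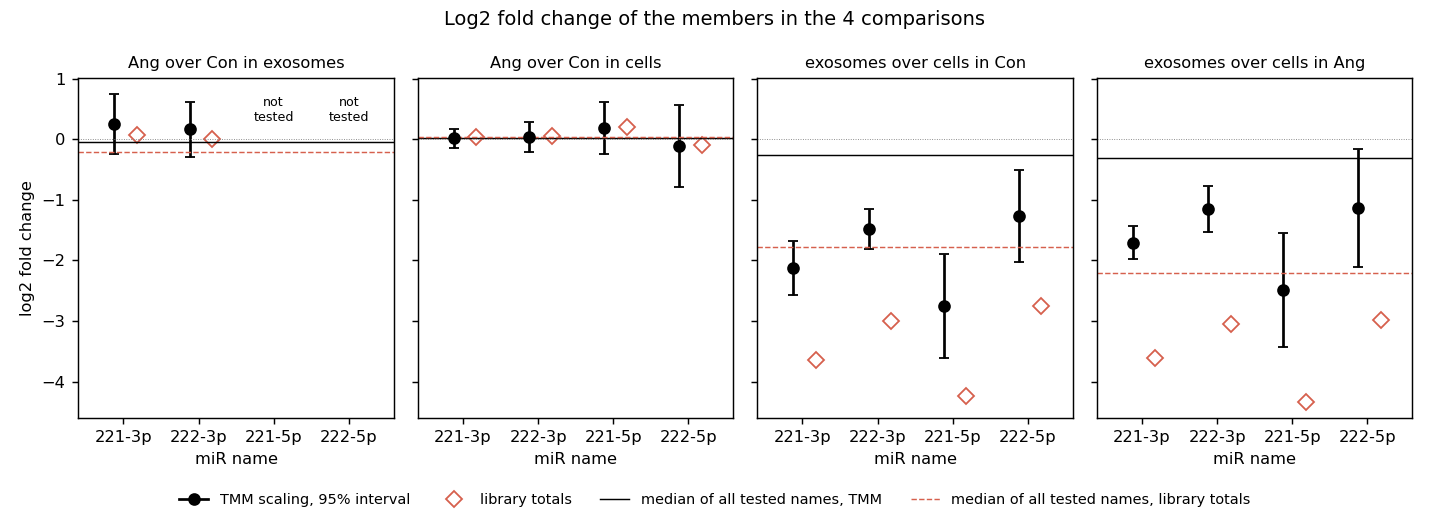
Log2 fold changes of the 4 members in the 4 comparisons: filled points with 95% intervals on the TMM scale, open diamonds with library totals alone, and lines for the median of all tested names under each scaling. The intervals cross 0 for Ang over Con in exosomes and in cells and lie below 0 for exosomes over cells, where library totals lower both the members and the median.

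The change with Ang was then compared between compartments, by subtracting the Ang over Con change of cells from that of exosomes over all 12 libraries. It was 0.36 on the log2 scale for miR-221-3p (SE 0.256; edgeR adjusted p = 0.426) and 0.26 for miR-222-3p (SE 0.242; edgeR adjusted p = 0.565). For the 5p strands it was 0.22 and 0.08 for miR-221-5p and miR-222-5p with SEs of 0.741 and 0.644 (edgeR adjusted p = 0.924 and 0.980). Of 1835 names tested, 15.1% were called, 9.97% higher and 5.18% lower, and 0 of the 4 members (0 at an unadjusted p under 0.05, and 0 with DESeq2 or limma-voom, DESeq2 giving no adjusted p for the 5p strands). The split of calls depended on scaling, with 183 of 278 calls higher under TMM, 250 of 327 under RLE factors, 251 of 317 with DESeq2 and 93 of 315 under library totals, which moved the median of all names by -0.32.

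Ratios between members within a library need no scaling, and the ratio of the main strands separated exosomes from cells. The count ratio of miR-221-3p to miR-222-3p was 12.9, 11.7 and 10.5 in exosomes Ang and 9.15, 11.3 and 12 in exosomes Con. It was 16.6, 19.0 and 16.3 in cells Ang and 18.1, 17.0 and 16.9 in cells Con. Every exosome library was thus below every cell library. On the log2 scale, with 0.5 added to each count, the means were 3.53 ± 0.147 in exosomes Ang, 3.41 ± 0.207 in exosomes Con, 4.11 ± 0.122 in cells Ang and 4.11 ± 0.0533 in cells Con (SD, n = 3 each). The difference of exosomes from cells was -0.58 in Ang and -0.70 in Con, each with p = 0.1 in an exact two-sided permutation test, the smallest that 3 against 3 libraries can give (adjusted over 16 ratio comparisons, 0.32). Over both treatments the mean difference was -0.64, a 1.56-fold lower ratio in exosomes, and leaving out 1 library at a time kept it between -0.68 and -0.58. No p is given for it, since a permutation within both treatments was added after the groups were seen not to overlap and could then give only its smallest p.

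The ratio of the 5p strands moved the same way but rests on few counts. Its log2 mean was -0.56 in exosomes Ang and -0.57 in exosomes Con, and 1.34 in cells Ang and 1.05 in cells Con, so that miR-221-5p led in cells but not in exosomes. The difference of exosomes from cells was -1.90 in Ang and -1.62 in Con, each with an exact two-sided permutation p = 0.1 (adjusted 0.32). These log2 ratios did not overlap within Ang or within Con, but in Ang that rests on the 0.5 added to each count. Without it, exosomes Ang replicate 3 had a ratio of 2.5 from 5 and 2 UMIs, against 2.4 and 2.44 in cells Ang replicates 2 and 3. The gap in Con was narrow as well. Exosomes Con replicate 3 had a count ratio of 1.67 from 5 and 3 UMIs, against 1.69 from 27 and 16 UMIs in cells Con replicate 2. Over both treatments the mean difference was -1.76, and it was -1.20 without exosomes Ang replicate 1, the library with no miR-221-5p.

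The 3p strand dominated both hairpins. In cells Con, miR-221-3p and miR-221-5p had 10145 and 81 summed UMIs, a ratio of 125, and miR-222-3p and miR-222-5p had 584 and 39, a ratio of 14.97. Among 506 hairpins whose strands summed to at least 100 counts there, 96.6% had a lower ratio of 3p to 5p than miR-221 and 82.4% a lower one than miR-222, and the median log2 ratio was 0.15. The strand ratio of miR-221 was 194 in exosomes Ang, 198 in exosomes Con and 112 in cells Ang from summed counts, and that of miR-222 was 16.8, 13.1 and 16.9. In exosomes these ratios rest on few counts, 8 summed UMIs of miR-221-5p in each group, and 8 and 11 of miR-222-5p in Ang and Con. Single exosome libraries with any miR-221-5p had strand ratios of miR-221 from 92.2 to 366. The log2 strand ratio of miR-221 differed between exosomes and cells by 1.10 in Ang and 0.60 in Con (exact permutation p = 0.4 and 0.1, adjusted 0.8 and 0.32), and that of miR-222 by -0.22 and -0.33 (exact permutation p = 0.7 and 0.6). Over both treatments the mean difference for miR-221 was 0.85, and it was 0.41 without exosomes Ang replicate 1. Between Ang and Con every ratio overlapped, with exact permutation p-values of 0.3 to 1.0, where the smallest possible is 0.1, so that no ratio could have passed at this sample size.

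**Figure D3:**
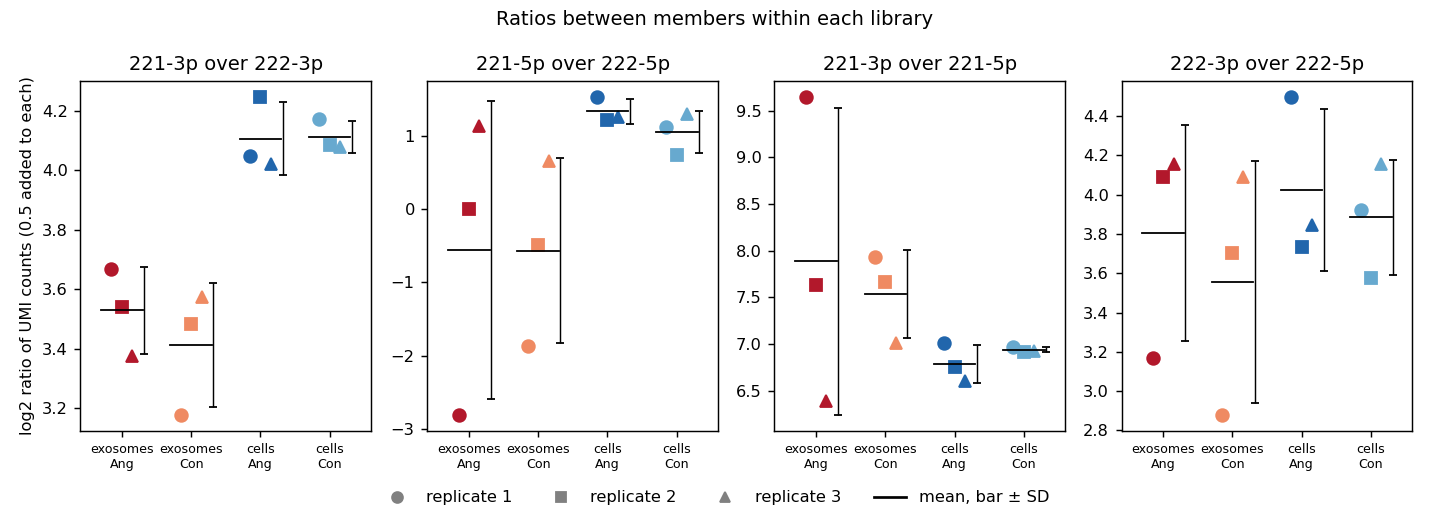
Log2 ratios of UMI counts between members in each library (0.5 added to each count), with symbols for replicates, a line for the mean and a bar for ± SD (n = 3); each panel has its own axis. The ratio of miR-221-3p to miR-222-3p is between 3.18 and 3.67 in exosomes and between 4.02 and 4.25 in cells, and Ang and Con overlap in each panel.

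Names with a pattern like that of the members were taken by Pearson's r of log2(CPM + 1) over the 12 libraries, among 1820 names with a mean of at least 10 CPM. These values describe the samples and carry no p, since nearly all of r comes from the step between exosomes and cells and all points share library depth. The names most like miR-221-3p were miR-30a-5p (r = 0.9991), miR-29a-3p (0.9990) and miR-24-3p (0.9987), with miR-222-3p in place 16 (0.998). The name most like miR-222-3p was miR-23b-3p (0.9985), followed by miR-221-3p (0.998) and miR-4735-3p (0.998). For miR-221-5p they were miR-8056, miR-202-3p and miR-6806-3p, and for miR-222-5p miR-8082, miR-2113 and miR-133a-5p, with r between 0.987 and 0.991. After the group means were taken out, the names nearest to miR-221-3p were miR-125a-5p, miR-25-3p and let-7a-5p (r = 0.979, 0.978 and 0.978), abundant miRNAs of cells. miR-222-3p was in place 51 with an r of 0.904, while miR-221-5p had 0.339 and miR-222-5p -0.13. The sparsely counted 5p strands had an r of -0.60 with each other, and miR-222-5p had -0.18 with miR-222-3p. Pooled over the groups, the 3p strands thus varied together. The r between the 5p strands rests in part on exosome libraries with 0 to 5 UMIs. In cells Ang both 5p strands rose from replicate 1 to replicate 3, so no common direction is read from that r.

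The cluster was also set beside other miRNAs of the vessel wall, where it is best known. Of 25 vessel wall miRNAs, 18 were tested for Ang against Con in exosomes, where 2 were higher and 0 lower in Ang (median log2 0.16, all names -0.05), a smaller share than the 16.9% higher and 17.1% lower of all names. They were miR-296-5p, known from endothelial angiogenesis, at 0.58 (edgeR adjusted p = 3.84e-04), and the hypoxia-induced miR-210-3p at 0.73 (edgeR adjusted p = 0.0303). miR-126-3p, the endothelial marker, had -1.19 and miR-31-5p 0.43, neither past the threshold (edgeR adjusted p = 0.0775 and 0.105). Leaving out a library changed these counts to 1 higher without exosomes Con replicate 2 or exosomes Ang replicate 1, 1 higher and 1 lower without exosomes Ang replicate 2, 4 higher without exosomes Con replicate 3, and 2 higher and 4 lower without exosomes Con replicate 1. Library totals gave 1 higher and a median of -0.02, DESeq2 1 higher, all 12 libraries 5 higher of 25, and the replicate block and no count filter 1 higher and 1 lower each. In cells 1 of 24 was higher, beside 2.76% of all names, miR-126-3p at 2.46 (edgeR adjusted p = 0.0445), for which Ang replicate 2 had 4007 CPM against 302 and 318 CPM in the other Ang libraries and 274 to 281 CPM in cells Con. The count of higher names in cells was 0 without cells Ang replicate 2 (with 1 lower) or without any one of the cells Con libraries, and 2 without cells Ang replicate 1. It was also 0 with DESeq2, limma-voom or all 12 libraries, and 2 with the replicate block.

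Between exosomes and cells these vessel wall miRNAs were mostly lower in exosomes, in comparisons where 39.2% of all names were higher and 44.2% lower in Con, and 38.2% higher and 45.1% lower in Ang. In Con 2 were higher and 17 lower of 25 (median log2 -1.80, all names -0.27), and in Ang 1 was higher and 20 lower of 24 (median -1.66, all names -0.31). Only 18 of the 25 passed the count filter in exosomes alone, as did 1199 of all names, against 1710 names tested here in Con. The others of the 25 entered through the cell libraries, which favours a lower call, so these counts are not independent support. With library totals 0 were higher and 23 lower in Con, and 1 higher and 23 lower in Ang. On the TMM scale miR-31-5p, of smooth muscle, was 11.2-fold lower in exosomes Con than in cells Con, and miR-21-5p, abundant in injured vessel walls, 11.8-fold lower. miR-296-5p was 4.50-fold higher in exosomes Ang and 2.84-fold higher in exosomes Con on that scale, but by library totals it measured 818 CPM in exosomes Ang against 675 CPM in cells Ang, and 614 CPM in exosomes Con against 619 CPM in cells Con. Without cells Ang replicate 2 the count in Ang was 2 higher and 19 lower.

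Of 147 other names that RefSeq places on chromosome X alone, 41 were tested for Ang against Con in exosomes. Names without a RefSeq entry could not enter this list. Of the 41, 9 were higher and 7 lower, near the 16.9% and 17.1% of all names. With library totals 7 were higher and 12 lower. The lowest p-values were those of miR-504-5p at -1.13, miR-450a-2-3p at -2.83 and miR-510-3p at 1.05. In cells 3 were higher and 3 lower of 72, beside 2.76% and 3.8% of all names, and 1 was higher under RLE scaling, with no count filter, with a minimum mean of 10 CPM, without any one of the cells Con libraries or without cells Ang replicate 1. Between exosomes and cells 20 were higher and 43 lower of 72 in Con, and 17 higher and 45 lower of 72 in Ang, beside the shares of all names given above. Only 41 of these names passed the count filter in exosomes alone, so many of the 72 entered through the cell libraries. That favours a lower call, so these counts are not independent support. With library totals 12 were higher and 54 lower in Con, and 8 higher and 58 lower in Ang.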

How the data were processed

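QIAseq miRNA libraries were prepared from cell RNA (miRNeasy Micro kit) and exosome RNA (exoRNeasy Maxi kit), per the labels' protocols. The authors deposited raw, unnormalized UMI counts for each mature miRNA, per the file headers. The submitters' processing notes name cutadapt and the build GRCh38; aligner, miRNA annotation and counter are not given in the sources. The 76 names absent from some files (at most 20 counts) were taken as 0 there.

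Comparisons used edgeR 4.0.16 (R 4.3.3) on the 6 libraries involved, and the interaction all 12, with filterByExpr, TMM and the two-sided quasi-likelihood test, not robust. Benjamini-Hochberg adjustment ran over all names tested, at a threshold of 0.05. SEs were derived from the F statistic. Ratios were tested by exact permutation with scipy 1.17.1. The fit was tested on simulated data. Alternatives were RLE factors, library totals, DESeq2 1.42.0, limma-voom 3.58.1, a replicate block, no filter, a mean of at least 10 CPM, all 12 libraries and each library left out. Named were the members, the 4 lowest p of a list (printed in part) and the names of most like pattern. A further list is not reported here. The members and lists were chosen with earlier results of these data known. Depth ran from 413513 to 1029883 UMIs; the floor of 3 counts covers counting error only.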

Additional observations from a re-analysis of the deposited data

How the results depend on the processing

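Of 268 values for changes of the members under other settings, 239 kept direction and side of the threshold, 22 turned in sign, none of them called in either setting, and 7 lost the call. The cause of these moves was not tested. Of the 16 group levels of the members in CPM, 15 moved by at least their SD when TMM effective library sizes replaced library totals. On that scale miR-221-3p averaged 1159 CPM in exosomes Ang and 925 CPM in exosomes Con. In cells it averaged 3796 CPM in Ang and 3895 CPM in Con. Scaling by library totals turned miR-222-3p for Ang over Con in exosomes (-0.0032) and the interaction of miR-221-5p (-0.10), miR-222-3p (-0.056) and miR-222-5p (-0.23). For Ang over Con in cells miR-221-3p turned with no count filter (-0.011), with a minimum mean of 10 CPM (-0.013) and with all 12 libraries (-0.037), where miR-222-3p also turned (-0.016). miR-222-5p in exosomes over cells in Ang lost its call with DESeq2 (-1.15, adjusted p = 0.155) and with no count filter (-1.09, edgeR adjusted p = 0.0700). Leaving out 1 library at a time gave 38 to 97 names called for Ang over Con in cells, with miR-221-3p at -0.037 to 0.085, miR-222-3p at -0.053 to 0.15 and miR-222-5p at -0.35 to 0.067. It gave -1.31 to -0.82 for miR-222-5p in exosomes over cells in Ang, and interactions of -0.51 to 0.98 for miR-221-5p and -0.18 to 0.32 for miR-222-5p. Log2 ratio differences without 1 library for Ang over Con in exosomes were -0.53 to 1.10 (miR-221-3p to miR-221-5p), -0.00016 to 0.20 (miR-221-3p to miR-222-3p), -0.83 to 1.14 (miR-221-5p to miR-222-5p) and -0.090 to 0.56 (miR-222-3p to miR-222-5p). In cells they were -0.076 to 0.036 (miR-221-3p to miR-222-3p) and -0.094 to 0.29 (miR-222-3p to miR-222-5p). For miR-222-3p to miR-222-5p in exosomes over cells they were -0.40 to 0.095 in Ang and -0.59 to 0.010 in Con. For miR-221-3p to miR-221-5p over both treatments they were 0.41 to 1.22. The same-numbered replicates did not deviate together (r of -0.18 to 0.24), so the replicate block is an alternative. It called 398 names for Ang over Con in exosomes and 132 in cells and changed no call of a member. Depth limits the 5p strands in exosomes, at 0 to 5 UMIs a library.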
